A study of Mus musculus with 16 samples.

Results

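The CD28 family and the coinhibitory receptors of T cells were taken as 10 genes, Ctla4, Cd28, Icos, Pdcd1, Lag3, Tigit, Havcr2, Cd96, Cd226 and Btla, and every probe set annotated to 1 of these symbols was used. The table held 12 such probe sets among 45141. They covered 9 of the 10 genes, with 3 probe sets for Icos, 2 for Cd28 and 1 for each of the others, while Tigit had no probe set listed under its symbol and is not analysed here. Of these genes, 7 were among the 8139 of 17097 genes that were tested, because their log2 value lay above 5 on at least 4 arrays. Lag3 and Havcr2 did not reach that level and were read from a fit without the filter.

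The samples were splenic CD4 T cells of NOD/LtJ mice aged 6 weeks, an inbred strain that develops autoimmune diabetes, with 4 arrays in each of 4 groups. The KI groups, regulatory T cells (KI Treg) and conventional T cells (KI Tconv), came from mice with the Foxp3tm2Ayr allele, a knock-in at Foxp3 that the labels call Foxp3gfp and that fuses GFP to the N terminus of the Foxp3 protein. The WT groups (WT Treg and WT Tconv) came from mice with Tg(Foxp3-EGFP/cre)1aJbs, an artificial chromosome transgene that expresses a GFP and Cre fusion under Foxp3 control beside the unaltered Foxp3 gene. WT here is therefore a reporter strain and not an unmodified mouse. The title of the series asks whether the loss of chromatin changes driven by Foxp3, the transcription factor that defines Tregs, leaves these cells insufficient. Whether each array stands for its own mouse is not stated in the labels, so the p-values reflect the spread among these arrays, which may be technical.

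CD28 and CTLA-4 bind the same ligands, CD80 and CD86, on antigen-presenting cells: CD28 gives the costimulatory signal for T cell activation, and CTLA-4, which binds more tightly, inhibits it and in Tregs removes the ligands from the other cell. ICOS and PD-1 belong to the same family, the first costimulatory and bound by ICOS ligand, the other inhibitory and bound by PD-L1 and PD-L2. TIGIT, CD96 and CD226 share nectin-like ligands, with CD226 activating, while LAG-3 binds MHC class II, TIM-3 (Havcr2) binds galectin-9 among other ligands, and BTLA binds HVEM. Tregs of healthy mice are known for high CTLA-4, ICOS and PD-1.

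RefSeq promoter windows (GRCm38.p6, C57BL/6J sequence), from 250 bases before the start of the gene to 50 after it, were matched by symbol for 6 of the 10 genes: Ctla4, Pdcd1, Tigit, Havcr2, Cd96 and Btla. The 250 bases before the start are shown for Ctla4 and Pdcd1, which were higher in Tregs of both genotypes, and for Btla, which was not. They lie at chr1:60908775-60909024 (plus strand) for Ctla4, chr1:94052554-94052803 (minus strand) for Pdcd1 and chr16:45224087-45224336 (plus strand) for Btla. Each is written 5′ to 3′ along the gene, and capitals mark GGAAA, the core bound by NFAT factors, or its reverse complement.
Ctla4: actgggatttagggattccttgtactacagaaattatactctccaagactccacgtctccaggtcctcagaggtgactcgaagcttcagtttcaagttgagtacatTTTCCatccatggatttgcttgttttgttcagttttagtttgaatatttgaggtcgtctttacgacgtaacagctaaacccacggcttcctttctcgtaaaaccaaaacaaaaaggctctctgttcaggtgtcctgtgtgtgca
Pdcd1: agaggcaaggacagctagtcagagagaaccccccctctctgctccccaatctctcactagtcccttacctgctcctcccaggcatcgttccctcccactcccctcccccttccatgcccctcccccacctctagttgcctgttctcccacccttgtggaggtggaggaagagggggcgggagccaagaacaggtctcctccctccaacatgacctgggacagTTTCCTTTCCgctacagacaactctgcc
Btla: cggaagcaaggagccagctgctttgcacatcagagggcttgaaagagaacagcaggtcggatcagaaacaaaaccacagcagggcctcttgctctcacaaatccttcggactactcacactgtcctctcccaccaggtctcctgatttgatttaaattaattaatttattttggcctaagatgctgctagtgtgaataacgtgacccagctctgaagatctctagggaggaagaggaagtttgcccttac
GGAAA on either strand matched once in the Ctla4 window, at -144 from the start, at 2 places for Pdcd1 (-28 and -23), 2 for Tigit and 5 for Cd96, and nowhere in the windows of Havcr2 and Btla, while 61.3% of 32851 promoters of the same length held it. TGTTTAC, a forkhead motif, was in none of the 6 windows and in 3.65% of all promoters. TGANTCA, an AP-1 motif, was in the Havcr2 window alone, at -200, and in 7.81% of all promoters. No match of 1 motif overlapped that of another, and a match is a description of the reference letters, not a bound site.

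The sorted identity of the samples was checked on Foxp3, which averaged 9.76 ± 0.29 in KI Treg and 9.86 ± 0.20 in WT Treg, against 3.69 ± 0.09 in KI Tconv and 4.63 ± 0.32 in WT Tconv (log2 expression, SD, n = 4 each). The sort that the labels describe kept CD3-positive, CD4-positive and GFP-negative cells in all samples, so how the Tregs were gated cannot be read from it. Array numbers in the sample titles fall into 3 runs, 4 to 9 (WT alone), 13 to 23 (KI alone) and 24 to 27, where the fourth array of each group stands. Genotype and array run can therefore be told apart only on arrays 24 to 27. The 6 measured T cell markers had a mean of 10.4 to 10.6 in every group. Differences are given on the log2 scale with the standard error (SE) and Benjamini-Hochberg adjusted p of limma over all genes, with 0.05 as the threshold for passing. In sorted pools, fewer cells that hold a transcript and less of it per cell cannot be told apart.

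Treg cells held more Ctla4, Icos, Pdcd1 and Cd96 transcript than Tconv in both genotypes, with Ctla4 at 30.1-fold in KI and 17-fold in WT cells. In KI cells 4 of the 7 tested receptors were higher in Tregs and none lower, where 41.1% of all tested genes passed in either direction, 21.2% as higher and 19.9% as lower. In WT cells the same 4 passed as higher and none as lower, where 34.6% of all genes passed, 16.7% as higher and 17.9% as lower. The arrays of the same 4 did not overlap between Tregs and Tconv, which 34.7% of all genes showed in KI and 37.2% in WT cells. The median difference of the 7 was 0.21 in KI and 0.37 in WT cells, beside -0.02 and -0.03 (KI and WT) over all genes.

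Ctla4, the inhibitory receptor of the CD28 family, read 11.27, 11.35, 11.27 and 11.23 in KI Treg and 10.73, 10.69, 10.47 and 10.68 in WT Treg. It read 6.60, 6.52, 6.68 and 5.67 in KI Tconv and 6.45, 6.49, 6.49 and 6.81 in WT Tconv. Every Treg array lay above every Tconv array by more than 3 log2 units, and every KI Treg array lay above every WT Treg array, while the Tconv groups overlapped. The Treg minus Tconv difference was 4.91 in KI (SE 0.158, limma adjusted p = 4.52e-14) and 4.08 in WT cells (SE 0.158, limma adjusted p = 8.64e-13). These differences ranked 4 and 6 from the highest among all 8139 genes (KI and WT).

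**Figure D1:**
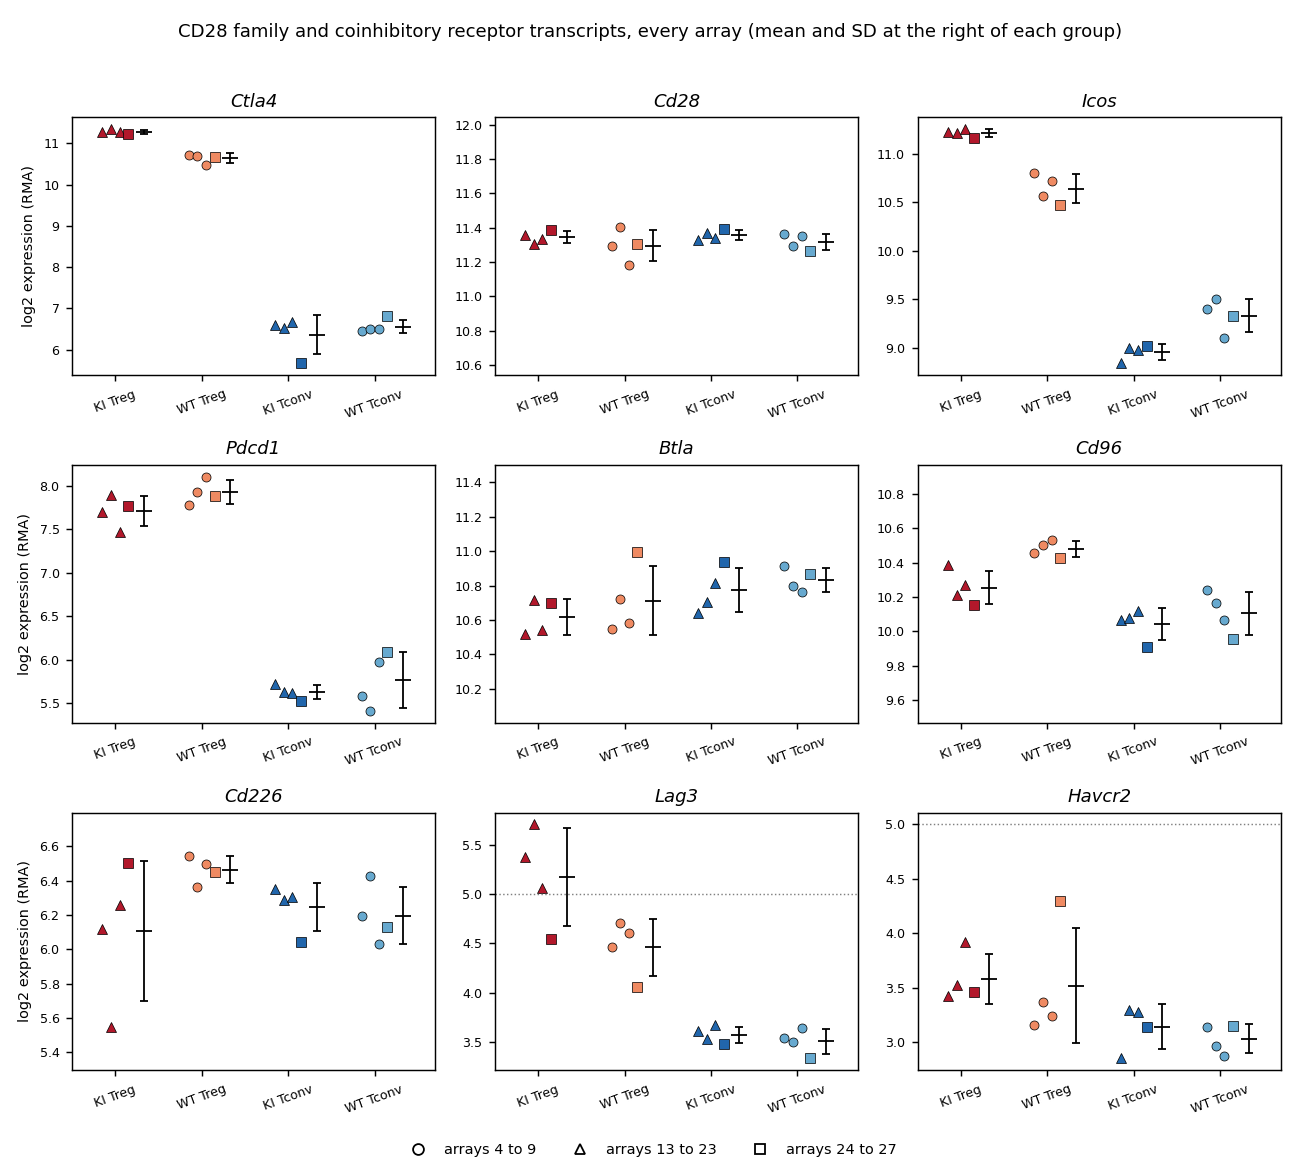
Log2 expression (RMA) of the 9 measured receptors on every array, in KI Treg, WT Treg, KI Tconv and WT Tconv from left to right, with 1 panel per gene and its own vertical range, the mean and SD at the right of each group, and marker shapes for the 3 runs of array numbers. Ctla4, Icos and Pdcd1 stand apart between Tregs and Tconv, Cd28 and Btla do not, and Lag3 and Havcr2 lie near or under the dotted line at 5.

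Icos, the inducible costimulator, was likewise separated by cell type and by genotype in Tregs. On the probe set with the highest mean it read 11.22, 11.22, 11.26 and 11.16 in KI Treg and 10.80, 10.57, 10.73 and 10.47 in WT Treg. It read 8.84, 9.00, 8.98 and 9.02 in KI Tconv and 9.40, 9.50, 9.10 and 9.33 in WT Tconv. No groups overlapped: KI Treg was the highest, then WT Treg, then WT Tconv, then KI Tconv. Treg minus Tconv came to 2.25 in KI (4.77-fold, SE 0.0822, limma adjusted p = 2.04e-13) and 1.31 in WT cells (2.47-fold, SE 0.0822, limma adjusted p = 5.12e-10). The other Icos probe sets gave 2.39 and 2.44 in KI and 1.48 and 1.81 in WT cells, and all 3 passed in both genotypes in a fit over 12927 probe sets, of which 37.2% passed in KI and 30.4% in WT cells.

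Pdcd1, which encodes PD-1, read 7.70, 7.89, 7.48 and 7.77 in KI Treg and 7.78, 7.94, 8.11 and 7.89 in WT Treg. It read 5.73, 5.63, 5.63 and 5.53 in KI Tconv and 5.59, 5.41, 5.97 and 6.10 in WT Tconv. The Treg groups overlapped each other, the Tconv groups did so too, and every Treg array lay above every Tconv array. Treg minus Tconv was 2.08 in KI (4.23-fold, SE 0.133, limma adjusted p = 4.45e-10) and 2.16 in WT cells (4.47-fold, SE 0.133, limma adjusted p = 3.98e-10), and the interaction, the KI difference less the WT one, was -0.08 (95% interval -0.47 to 0.32). Cd8a, a marker of CD8 T cells, which a gate on CD4 would largely leave out, was also higher in Tregs, by 1.82 in KI and 2.35 in WT cells, while Cd8b1, the other CD8 chain, did not pass, at -0.26 in KI (limma adjusted p = 0.0934) and 0.08 in WT cells (limma adjusted p = 0.658). Summed over Cd8a and Cd8b1, the linear level ran from 115.5 to 154 in KI Treg and 138.5 to 176.5 in WT Treg, against 93.98 to 121.7 in KI Tconv and 73.42 to 92.57 in WT Tconv. Its part in the Treg differences of the receptors was not tested.

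Cd96, a receptor for the nectin-like ligand CD155, was higher in Tregs by a small amount. It read 10.39, 10.21, 10.27 and 10.15 in KI Treg and 10.46, 10.50, 10.53 and 10.43 in WT Treg. It read 10.07, 10.08, 10.12 and 9.91 in KI Tconv and 10.24, 10.16, 10.06 and 9.95 in WT Tconv. Within each genotype the Treg and Tconv arrays did not overlap. Treg minus Tconv was 0.21 in KI (1.16-fold, SE 0.0683, limma adjusted p = 0.0197) and 0.37 in WT cells (1.3-fold, SE 0.0683, limma adjusted p = 0.000306). The KI call ended without KI Treg 1 (adjusted p = 0.0781), without KI Tconv 4 (adjusted p = 0.0661) and with arrays centred on their medians (adjusted p = 0.056). Cd96 is also an NK cell gene, and the summed level of the 9 measured NK markers was 202.8 to 599.8 in KI Treg and 228.2 to 629.7 in WT Treg, against 456.5 to 616.8 in KI Tconv and 473.2 to 653 in WT Tconv, with Ncr1, Klrb1c, Klrk1 and Klra8 never above 5.

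**Figure D2:**
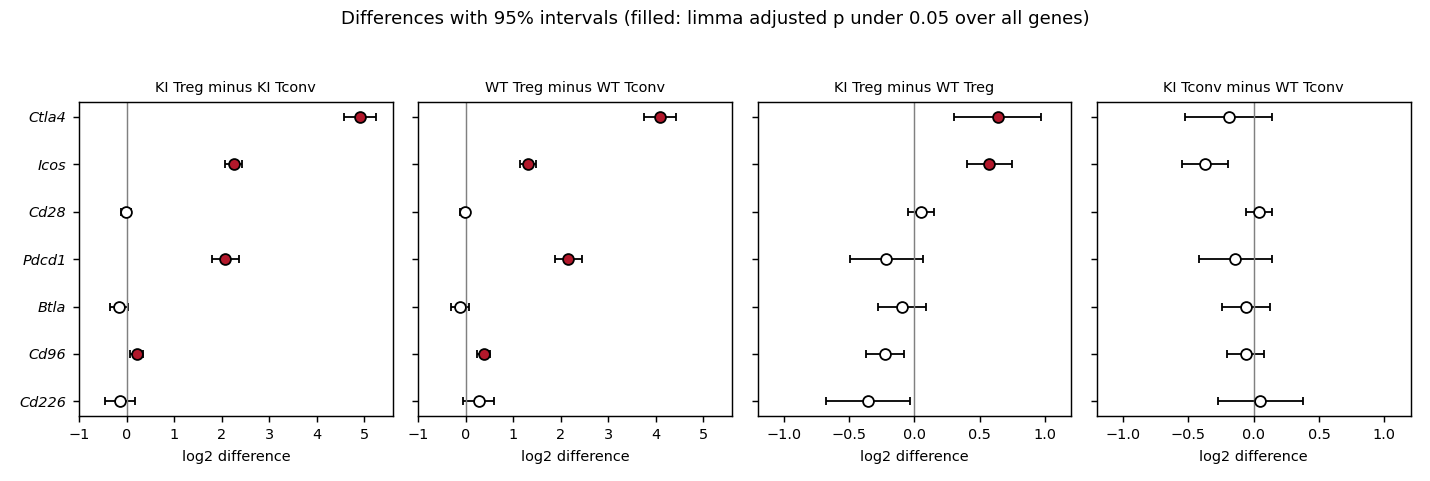
Log2 differences of the 7 tested receptors with 95% intervals, for KI Treg minus KI Tconv, WT Treg minus WT Tconv, KI Treg minus WT Treg and KI Tconv minus WT Tconv; filled points passed in limma over all genes, and the axes of the 2 genotype panels are narrower. Ctla4, Icos, Pdcd1 and Cd96 passed in both cell type panels, Ctla4 and Icos passed between KI and WT Tregs, and no receptor passed between KI and WT Tconv.

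Cd28, the costimulatory receptor itself, had nearly the same value in every group. On the probe set with the highest mean it read 11.36, 11.30, 11.33 and 11.39 in KI Treg and 11.29, 11.40, 11.18 and 11.30 in WT Treg, beside 11.33, 11.37, 11.34 and 11.39 in KI Tconv and 11.37, 11.30, 11.35 and 11.27 in WT Tconv. All the groups overlapped on both Cd28 probe sets. Treg minus Tconv was -0.01 in KI (95% interval -0.11 to 0.09) and -0.02 in WT cells (95% interval -0.12 to 0.08). The other Cd28 probe set averaged 10.53 ± 0.10 in KI Treg and 10.58 ± 0.11 in WT Treg, beside 10.41 ± 0.14 in KI Tconv and 10.55 ± 0.04 in WT Tconv (SD, n = 4 each).

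The Ctla4 value less the Cd28 value was taken on each array, since the products share ligands. Between Tregs and Tconv it differed by 4.93 in KI and 4.11 in WT cells, and between KI and WT Tregs by 0.59 (two-sided exact permutation tests over 70 assignments, p = 0.0286 each, the smallest p this design allows, and adjusted p = 0.0381 over the 4 comparisons). Between KI and WT Tconv it differed by -0.23 (exact permutation p = 0.543). In these 3 comparisons that passed, all 4 arrays of the Treg or KI Treg group lay above all 4 of the other group. Because Cd28 was nearly flat, this separation repeats that of Ctla4 above and is not a second result.

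Btla, an inhibitory receptor also present on B cells, read 10.52, 10.72, 10.54 and 10.70 in KI Treg and 10.55, 10.72, 10.58 and 10.99 in WT Treg. It read 10.64, 10.71, 10.82 and 10.94 in KI Tconv and 10.92, 10.80, 10.76 and 10.87 in WT Tconv. Treg and Tconv arrays overlapped within each genotype, as did KI and WT within each cell type, and Treg minus Tconv was -0.16 in KI (limma adjusted p = 0.164) and -0.12 in WT cells (limma adjusted p = 0.305). The WT difference passed without arrays 24 to 27 (-0.21, adjusted p = 0.0418) and without WT Treg 4 (-0.22, adjusted p = 0.0368). The KI one passed with array weights (-0.20, adjusted p = 0.0255), a setting in which 4546 of 8139 genes passed. The summed level of 9 B cell markers was 229.3 to 644 in KI Treg and 242.9 to 940.6 in WT Treg, against 168.5 to 480.3 in KI Tconv and 226.3 to 947.4 in WT Tconv, with Cd79a, Pax5, Fcer2a and Ebf1 never above 5.

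Cd226, the activating counterpart of TIGIT and CD96, read 6.12, 5.55, 6.26 and 6.501 in KI Treg and 6.55, 6.36, 6.497 and 6.45 in WT Treg. It read 6.35, 6.29, 6.30 and 6.04 in KI Tconv and 6.19, 6.43, 6.03 and 6.13 in WT Tconv. Treg and Tconv arrays overlapped within each genotype, as did KI and WT within each cell type, and the low KI Treg value was on array 2. Treg minus Tconv was -0.14 in KI (limma adjusted p = 0.501) and 0.27 in WT cells (limma adjusted p = 0.192). Without KI Treg 2 the KI difference was 0.05.

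Lag3, an inhibitory receptor for MHC class II, was above 5 on 3 arrays, all KI Treg. It read 5.38, 5.71, 5.06 and 4.54 in KI Treg and 4.46, 4.71, 4.60 and 4.06 in WT Treg, against 3.61, 3.53, 3.67 and 3.47 in KI Tconv and 3.54, 3.50, 3.64 and 3.33 in WT Tconv. Every Treg array lay above every Tconv array, and the lowest array of each Treg group was the fourth. In the fit of all 17097 genes Treg minus Tconv was 1.60 in KI (SE 0.188, limma adjusted p = 1.4e-06, where 21.4% of genes passed) and 0.95 in WT cells (SE 0.188, limma adjusted p = 0.000884, where 16.7% passed). The nonspecific control probe sets reached 4.71, so the WT Treg and Tconv values of Lag3 lie within their range and a log2 difference there understates the fold.

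Havcr2, which encodes TIM-3, was not above 5 on any array. It read 3.43, 3.53, 3.92 and 3.46 in KI Treg and 3.16, 3.37, 3.25 and 4.30 in WT Treg, against 2.85, 3.30, 3.28 and 3.14 in KI Tconv and 3.14, 2.97, 2.88 and 3.15 in WT Tconv. Within each genotype the Treg arrays lay above the Tconv arrays, but all values lie within the range of the control probe sets, and the highest is WT Treg 4. The Treg minus Tconv difference was 0.44 in KI (limma adjusted p = 0.108, no filter) and 0.49 in WT cells (limma adjusted p = 0.0855, no filter). TIM-3 is abundant on myeloid cells, and the summed level of 7 monocyte and macrophage markers was 1695 to 2414 in KI Treg and 1747 to 3005 in WT Treg, against 1402 to 1826 in KI Tconv and 1490 to 1940 in WT Tconv, with Csf1r and Itgam never above 5. Ctss, the highest of the 7, weighs most in this sum. It averaged 10.65 in KI Treg and 10.815 in WT Treg, against 10.43 in KI Tconv and 10.47 in WT Tconv. Lyz2 varied more, with SD from 1.285 to 1.844 over the groups. Its Treg minus Tconv difference was 1.28 in KI (limma adjusted p = 0.312) and 0.35 in WT cells (limma adjusted p = 0.821). The part of these markers in the Havcr2 values was not tested.

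Between KI and WT Tregs, Ctla4 and Icos were higher in KI, by 1.55-fold and 1.49-fold. They were 2 of 7 tested receptors, and no receptor was lower, where 2.84% of all tested genes passed, 1.99% as higher and 0.848% as lower. The median difference of the 7 was -0.10, beside 0.04 over all genes. For Icos the difference was 0.57 (SE 0.0822, limma adjusted p = 0.000729), and the other 2 probe sets gave 0.62 and 0.49 and passed in the probe set fit (adjusted p = 0.00181 and 0.00504), where 1.98% of probe sets passed. All 3 Icos probe sets had no overlap between KI and WT Treg arrays. The Icos call held in all 12 alternatives run (0.54 to 0.67, adjusted p up to 0.0338), and on arrays 24 to 27, with 1 array a group, KI Treg was higher by 0.69.

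The Ctla4 difference between KI and WT Tregs was 0.64 (SE 0.158, limma adjusted p = 0.0358), with no overlap of the 8 arrays. The call ended when any of KI Treg 1 to 3 or WT Treg 1 to 4 was left out (0.58 to 0.67, adjusted p = 0.0581 to 0.123), without a variance trend (adjusted p = 0.0555), with arrays centred (0.60, adjusted p = 0.0656) and with the runs of array numbers as a random block (0.55, adjusted p = 0.126) or a fixed block (0.12, SE 0.186, adjusted p = 0.949). The fixed block separates genotype from run only through arrays 24 to 27, where it pools both cell types. KI minus WT Tconv was -1.14 there (1 array a group), so the 0.12 does not describe the Treg arrays alone. KI Treg was higher by 0.56 on arrays 24 to 27 (1 array a group) and by 0.66 without those arrays (adjusted p = 0.000477). On these arrays KI Tconv 4 was the array with Ctla4 at 5.67, and the fit without it gave the same difference of 0.64 with an adjusted p of 0.000251.

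The other receptors did not pass between KI and WT Tregs. Cd96 differed by -0.22 (SE 0.0683, limma adjusted p = 0.092) with no overlap of the arrays, which 8.12% of all genes showed in either direction, and it passed with 2 runs as a block (adjusted p = 0.0239). Pdcd1 differed by -0.22 (95% interval -0.50 to 0.06), Cd226 by -0.36 (95% interval -0.68 to -0.04, limma adjusted p = 0.249), Btla by -0.10 (95% interval -0.28 to 0.09) and Cd28 by 0.05 (95% interval -0.05 to 0.15). With array weights Cd226 passed (-0.38, adjusted p = 0.0291), a setting in which 1715 of 8139 genes passed. On arrays 24 to 27 (1 array a group) Cd226 differed by 0.05, and with an array left out it ran from -0.49 to -0.17. Lag3 in the fit without a filter differed by 0.71 (SE 0.188, limma adjusted p = 0.0686, where 1.45% of genes passed), and its Treg groups overlapped because of KI Treg 4.

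Between KI and WT Tconv none of the 7 receptors passed, where 0.135% of genes (11 of 8139) did. The largest difference was that of Icos, -0.37 (SE 0.0822, unadjusted p = 0.000265, limma adjusted p = 0.144), and 1 of the 7 receptors had an unadjusted p under 0.05. Its arrays did not overlap on the probe set with the highest mean, which 3.74% of all genes showed, but did on the other probe sets, at -0.29 and -0.14. It passed with array weights (-0.35, adjusted p = 0.0179), without KI Tconv 4 (adjusted p = 0.0488) and without WT Tconv 3 (adjusted p = 0.0205). Beside it, 3 of 6 Treg markers were lower in KI Tconv, with differences of -0.93 for Foxp3 (limma adjusted p = 0.0104), -0.83 for Ikzf2 and -0.78 for Nrp1. The other 3 did not pass, with -0.35 for Ikzf4 (limma adjusted p = 0.727), -0.10 for Il2ra (limma adjusted p = 0.921) and -0.03 for Tnfrsf18 (limma adjusted p = 0.971). The summed level of the 6 was 1057 to 1225 in KI Tconv, against 1371 to 1509 in WT Tconv. The part of these markers in the Icos value was not tested. The Foxp3 means, 3.69 in KI Tconv and 4.63 in WT Tconv, lie within the range of the control probe sets, which reached 4.71. So do those of Il2ra, 3.704 in KI Tconv and 3.805 in WT Tconv. Ctla4 differed by -0.19 (95% interval -0.53 to 0.14), which turned to 0.04 without KI Tconv 4.

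The genotype difference was set against the cell type in the interaction, KI minus WT in Tregs less the same in Tconv. Icos was the receptor that passed, at 0.95 (SE 0.116, limma adjusted p = 0.000463), where 0.786% of all genes passed. Its 3 probe sets gave 0.95, 0.91 and 0.63 and all passed (adjusted p = 0.000767, 0.00399 and 0.0208), where 0.511% of probe sets did. For Ctla4 the interaction was 0.83 (SE 0.224, limma adjusted p = 0.129), and it passed with array weights (0.67, adjusted p = 0.0168), with 3 runs as a block (0.83, adjusted p = 0.018), without arrays 24 to 27 (0.54, adjusted p = 0.0342) and without KI Tconv 4 (0.60, adjusted p = 0.0182). The others gave values between -0.41 for Cd226 and 0.01 for Cd28, with adjusted p from 0.677 to 0.989.

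**Figure D3:**
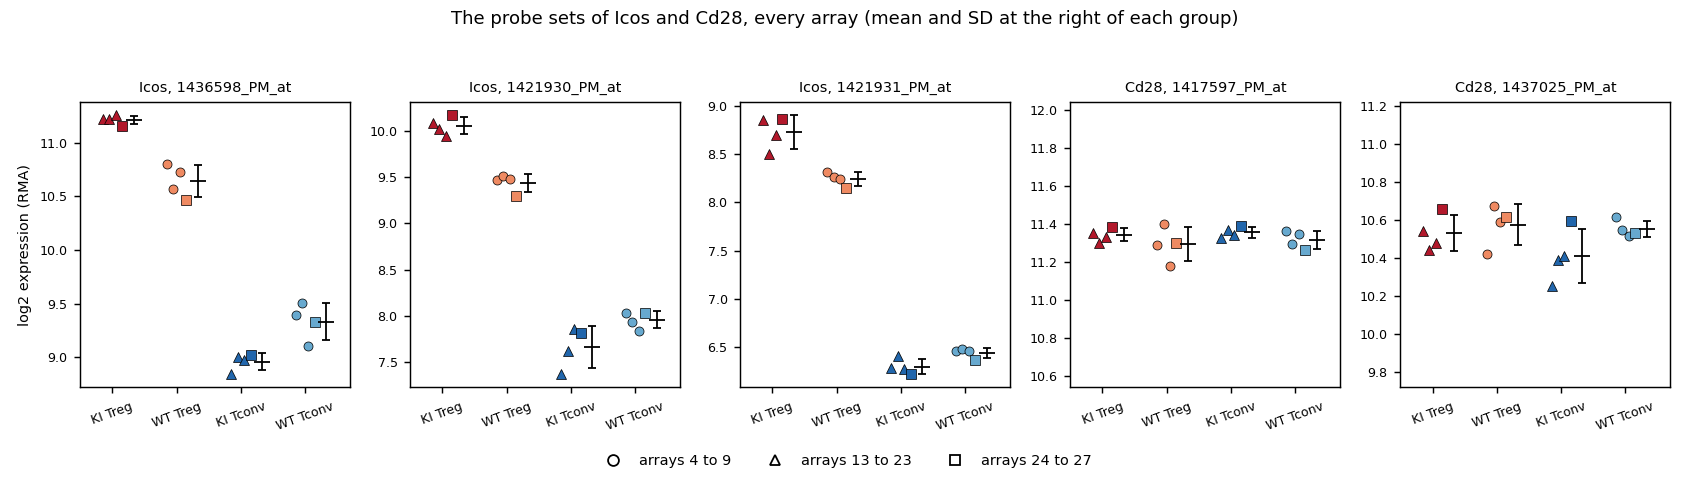
Log2 expression (RMA) on every array for the 3 probe sets of Icos and the 2 of Cd28, in KI Treg, WT Treg, KI Tconv and WT Tconv from left to right, with the mean and SD at the right of each group, marker shapes for the runs of array numbers and 1 vertical range per panel. All Icos probe sets put KI Treg above WT Treg, while Cd28 overlaps between all groups on both.

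Transcripts of the ligands were also read in these T cells. Of 11 tested ligand genes, 5 were higher and 1 lower in KI Treg than in KI Tconv, and 5 were higher and 2 lower in WT Treg than in WT Tconv, with medians of 0.20 in KI and 0.07 in WT cells, where 41.1% of all tested genes passed in KI and 34.6% in WT cells in either direction. Cd86, a ligand of CD28 and CTLA-4, averaged 6.96 ± 0.03 in KI Treg and 7.24 ± 0.19 in WT Treg, against 4.94 ± 0.26 in KI Tconv and 4.97 ± 0.22 in WT Tconv (SD, n = 4 each), a WT difference of 2.27 (limma adjusted p = 2.94e-10). Cd80, the other shared ligand, averaged 5.37 ± 0.21 in KI Treg and 5.11 ± 0.20 in WT Treg, against 3.60 ± 0.23 in KI Tconv and 3.59 ± 0.14 in WT Tconv. Its Tconv means lie within the range of the control probe sets, which reached 4.71. CD80, CD86 and PD-L2 are best known from antigen-presenting cells: all 6 measured dendritic cell markers stayed under 5 on every array, with a summed level of 60.59 to 89.51 in KI Treg and 55.02 to 92.8 in WT Treg, against 62.93 to 75.21 in KI Tconv and 63.44 to 68.38 in WT Tconv. H2-Aa, an MHC class II gene of the ligand list, averaged 8.74 ± 1.10 in KI Treg and 8.96 ± 1.36 in WT Treg. It averaged 8.545 ± 0.61 in KI Tconv and 8.89 ± 0.38 in WT Tconv. Its Treg minus Tconv difference was 0.20 in KI (limma adjusted p = 0.803) and 0.07 in WT cells (limma adjusted p = 0.941). Other marker lists held genes above 5. Cd79b, a B cell marker, averaged 6.99 in KI Treg and 7.41 in WT Treg, against 5.61 in KI Tconv and 6.26 in WT Tconv. Treg minus Tconv was positive for 5 of 5 tested B cell markers in KI and 2 of 5 in WT cells. It was positive for 2 of 3 tested monocyte and macrophage markers in KI and 3 of 3 in WT cells. The part of such cells in the ligand values was not tested.

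Pdcd1lg2, which encodes the PD-1 ligand PD-L2, was the 1 ligand gene that passed between KI and WT Tregs. It averaged 6.84 ± 0.31 in KI Treg and 6.20 ± 0.19 in WT Treg, against 3.91 ± 0.12 in KI Tconv and 3.90 ± 0.23 in WT Tconv (SD, n = 4 each), the Tconv means being within the range of the control probe sets. KI Treg was higher than WT Treg by 0.65 (SE 0.158, limma adjusted p = 0.0337). No ligand gene passed between KI and WT Tconv, and the medians over the 11 genes were 0.06 in Tregs and 0.01 in Tconv, beside 0.04 and 0.01 over all genes (Tregs and Tconv).

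Of 13 tested genes for other coinhibitory receptors and linked molecules, 6 were higher and 2 lower in KI Treg than in KI Tconv, and 7 were higher and 3 lower in WT Treg than in WT Tconv. The 13 include genes that encode no inhibitory receptor, such as Cd200 and Nt5e, so these counts are not of receptors alone. The median difference was 0.59 in KI and 0.62 in WT cells, and the share of all genes that passed was 41.1% in KI and 34.6% in WT cells. Klrg1, an inhibitory receptor for cadherins, averaged 9.08 ± 0.08 in KI Treg and 8.70 ± 0.52 in WT Treg, against 3.35 ± 0.34 in KI Tconv and 4.94 ± 0.44 in WT Tconv (SD, n = 4 each). Cd200, the ligand of CD200R, differed by 2.13 in KI and 1.93 in WT cells, and Nt5e, the ectoenzyme CD73, by 3.34 in KI and 2.64 in WT cells. None of the 13 passed between KI and WT Tregs, and Klrg1 alone passed between KI and WT Tconv, lower in KI with a difference of -1.59 (SE 0.232, limma adjusted p = 0.00332). Both of its Tconv means lie under 5, and the KI one lies within the range of the control probe sets, which reached 4.71.

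Genes for transcription factors known to control these receptors were mostly higher in Tregs. Of 13 tested, 11 were higher and 1 lower in Tregs than in Tconv of each genotype, with medians of 1.37 in KI and 1.34 in WT cells. The 11 include Foxp3, which defines Tregs, so its higher value there is no separate result. Of all genes, 41.1% passed in KI and 34.6% in WT cells. In KI against WT Tregs 4 were higher and none lower, where 2.84% of all genes passed, and the median was 0.34, beside 0.04 over all genes. Nfil3, a basic leucine zipper factor known to induce Havcr2 in helper T cells, averaged 7.12 ± 0.17 in KI Treg and 6.03 ± 0.18 in WT Treg, against 4.18 ± 0.14 in KI Tconv and 4.19 ± 0.16 in WT Tconv (SD, n = 4 each). Its KI minus WT difference in Tregs was 1.09 (SE 0.129, limma adjusted p = 0.000153). Prdm1, which encodes Blimp-1, was higher by 0.89 (SE 0.128, limma adjusted p = 0.000729) and Batf, an AP-1 family factor, by 0.52 (SE 0.104, limma adjusted p = 0.0109). Irf4, its partner, was higher by 0.70 (SE 0.18, limma adjusted p = 0.0432), a gene named because the count is 4 and not by the rule. Maf, known to promote coinhibitory receptor genes together with Blimp-1, was higher in Tregs than Tconv by 2.77 in KI and 2.11 in WT cells and did not pass between KI and WT Tregs (0.41, limma adjusted p = 0.167).

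**Figure D4:**
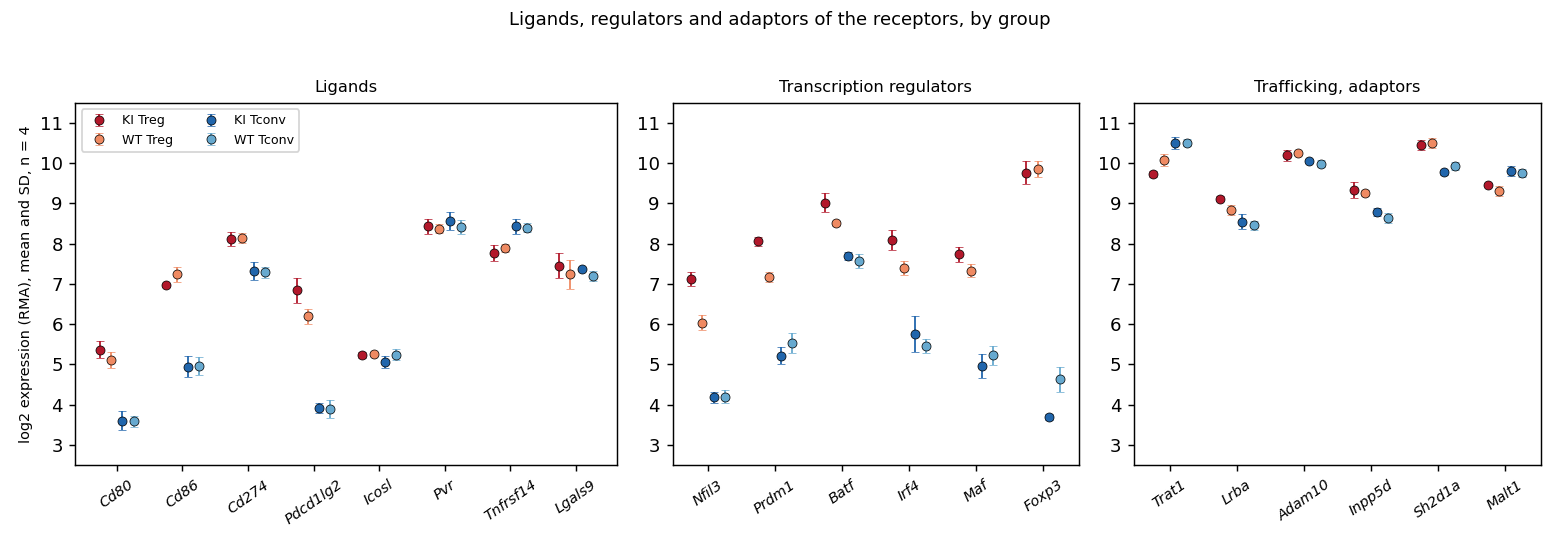
Group means and SD (n = 4) of log2 expression (RMA) for ligands, transcription regulators and trafficking or adaptor genes, with KI Treg, WT Treg, KI Tconv and WT Tconv from left to right within each gene; genes outside the rule for naming were picked for display after their values were seen. Pdcd1lg2, Nfil3, Prdm1, Batf and Irf4 lie higher in KI Treg than in WT Treg, and Trat1 lies lower.

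The last groups were genes that move CTLA-4 to and from the surface or shed LAG-3, and the genes of signalling and of follicular helper cells. Of 9 trafficking and shedding genes tested, 3 were higher and 1 lower in Tregs than in Tconv of each genotype, a share near the 41.1% of all genes that passed in KI and the 34.6% in WT cells. Trat1, an adaptor that links the T cell receptor complex and CTLA-4 transport, averaged 9.73 ± 0.08 in KI Treg and 10.08 ± 0.14 in WT Treg, against 10.50 ± 0.14 in KI Tconv and 10.52 ± 0.09 in WT Tconv (SD, n = 4 each). It was lower in Tregs of both genotypes and lower in KI than in WT Tregs, with a difference of -0.34 (SE 0.0793, limma adjusted p = 0.0267). Lrba, which keeps CTLA-4 from lysosomes, was higher in Tregs by 0.57 in KI (limma adjusted p = 4.77e-05) and 0.39 in WT cells (limma adjusted p = 0.00261). Adam10, a protease that cleaves LAG-3, differed by 0.14 in KI and did not pass (limma adjusted p = 0.0955), and was higher in WT Treg than in WT Tconv by 0.28 (limma adjusted p = 0.00236).

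Among 18 tested signalling genes, 3 were higher and 6 lower in KI Treg than in KI Tconv, 3 were higher and 4 lower in WT Treg than in WT Tconv, and none passed between the genotypes in either cell type. These shares lie near those of all genes, 41.1% in KI and 34.6% in WT cells. Sh2d1a, the adaptor SAP, was higher in Tregs by 0.68 in KI and 0.57 in WT cells, and Inpp5d, the phosphatase SHIP1, by 0.55 in KI and 0.63 in WT cells. Malt1, a protease of the NF-kappaB pathway, was lower, at -0.33 in KI and -0.43 in WT cells. Of 9 follicular helper genes, whose cells carry ICOS and PD-1, 4 were higher and 3 lower in KI Treg and 4 higher and 2 lower in WT Treg than in Tconv, to be read against the same 41.1% in KI and 34.6% in WT cells. Cxcr5 was higher in Tregs by 2.00 in KI and 1.29 in WT cells, and Bcl6 by 0.50 in KI and 0.80 in WT cells (limma adjusted p of at most 0.000504 in these 4 comparisons). Il21 went the other way, at -1.88 in KI (limma adjusted p = 4.24e-07) and -1.33 in WT cells (limma adjusted p = 3.66e-05). Pou2af1 was also lower in Tregs, at -1.08 in KI (limma adjusted p = 0.00495) and -1.685 in WT cells (limma adjusted p = 0.000116). Tnfsf8, which encodes CD30 ligand, was lower in KI Treg than in KI Tconv (-1.22, limma adjusted p = 2.57e-05). Among the follicular genes, it passed between KI and WT Tregs, at -0.99 (SE 0.18, limma adjusted p = 0.00526).

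For the 4 receptors that passed in both cell type comparisons, the genes with the most similar pattern were found by the root mean square difference over the 16 arrays after each gene was centred on its own mean. Nearest to Ctla4 were Dusp4, a dual specificity phosphatase (0.294), and Plagl1 (0.419), and nearest to Icos were Nod1 (0.175) and Peak1 (0.201). Tmem158 (0.197) and Phlpp1 (0.217) lay nearest to Pdcd1, and Lncpint (0.092) and Hdac1 (0.095) to Cd96. Dusp4 averaged 9.69 in KI Treg and 9.35 in WT Treg, against 4.93 in KI Tconv and 5.28 in WT Tconv, and Nod1 averaged 8.64 in KI Treg and 8.42 in WT Treg, against 6.67 in KI Tconv and 6.88 in WT Tconv.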

How the data were processed

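Each deposited value is the log2 expression of a probe set on a perfect-match Affymetrix array, made by the authors with RMA in Partek 6.5, per the submitters' processing notes. RMA subtracts background, equalises the arrays and summarises the probes of a set, and its options are not given in the sources used here. Per the labels' protocols, RNA was isolated with TRIZOL and labelled by the 3' IVT Express protocol. The values ran from 1.95 to 13.9 and array medians from 3.69 to 3.76, with 17581 to 17990 probe sets above 5 per array. Arrays within a group correlated at 0.989 to 0.997, and the number of arrays limits the precision.

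Of 45141 probe sets, 28898 had 1 gene (28689 matched by Entrez identifier, 152 by symbol, 57 under the array's symbol), 551 several, 15588 none listed and 104 were controls. For each gene the probe set brightest on average was used. All 4 groups entered 1 linear model in limma 3.58.1 (R 4.3.3, trended variances, 16 arrays), two-sided, adjusted over 8139 genes, or over 12927 probe sets, or over 17097 genes without the filter. The script was tested on simulated data. Promoters and motif counts came from RefSeq windows. Cell type marker lists are described by counts and levels.

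All 10 members are named. From each other list, up to 3 genes with the lowest p among those that passed between WT Treg and WT Tconv, and likewise between KI and WT Tregs, are named, with Foxp3 and the 2 nearest genes of each member that passed in both cell type comparisons. Irf4, Nrp1, Ikzf4, Tnfrsf18, H2-Aa, Cd8b1, Lyz2, Il21 and Pou2af1 lie outside this rule and were chosen after their values were seen. The members and lists were chosen with earlier results of these data known. Alternatives covered the filter, the variance model, the choice of probe set, centring, array weights, the runs of array numbers, the samples fitted, each array left out and, added after the data were seen, arrays 24 to 27 left out.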

Additional observations from a re-analysis of the deposited data

Results flagged for a closer look

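Ctla4 on KI Tconv array 4 was 5.67, while the other 3 KI Tconv arrays ran from 6.52 to 6.68, so that the gap took 0.841 of the range of the group. Ctla4 on WT Tconv array 4 was 6.81, while the other 3 WT Tconv arrays ran from 6.45 to 6.49, a gap of 0.879 of the range. Both arrays are among those numbered 24 to 27. These were the 2 outlying arrays in 48 groups of 4 examined, and chance gives about 1 in 20. The KI minus WT difference of Icos was larger in Tregs than in Tconv by 0.95, which was tested as an interaction in limma (adjusted p = 0.000463).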

How the results depend on the processing

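No paired analysis was possible because the labels give no replicate numbers that the groups share, and the replicate numbers follow accession order. The count of receptors that passed between KI and WT Tregs was 2 and became 1 without the variance trend, with centred arrays, and with 3 runs of array numbers as a fixed or a random block, and 3 with array weights and with 2 runs as a block, with a range of 1 to 2 over the fits that leave out an array; 2 of the probe sets passed with the fixed block, against 4. In KI against WT Tconv it was 0 and became 1 with array weights (0 to 1 with an array left out, for genes and for probe sets). For the interaction it was 1 and became 2 with array weights, with 3 runs as a block and without arrays 24 to 27 (1 to 2 with an array left out). The cause of these changes was not tested. In the fixed block fit the Treg difference also draws on the Tconv arrays among those numbered 24 to 27. Over all genes, 231 passed between KI and WT Tregs, against 1715 with array weights, 29 with the fixed block, 130 with the random block, 422 without arrays 24 to 27 and 101 to 571 with an array left out. For KI against WT Tconv 11 passed, against 249 with array weights, 5 with the fixed block, 4 with only the groups compared, 105 without arrays 24 to 27 and 7 to 65 with an array left out. The interaction called 64 genes, against 453 with array weights and 37 to 104 with an array left out.

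The direction turned only for values that passed in neither setting. With the mean of its probe sets, Cd28 gave 0.053 for KI Treg minus KI Tconv, 0.001 for WT Treg minus WT Tconv and -0.05 for KI minus WT Tconv, and its interaction was -0.017 with centred arrays. Without arrays 24 to 27, KI minus WT Tconv was 0.123 for Ctla4 and 0.002 for Pdcd1, and the Btla interaction was 0.075. With an array left out, Cd28 ran from -0.027 to 0.001 (KI Treg minus KI Tconv), -0.059 to 0.014 (WT Treg minus WT Tconv) and -0.028 to 0.045 (interaction). Cd226 ran from -0.271 to 0.047 (KI Treg minus KI Tconv) and -0.004 to 0.128 (KI minus WT Tconv), Ctla4 from -0.296 to 0.04 and Ctla4 less Cd28 from -0.341 to 0.013 (both KI minus WT Tconv), and the interactions of Pdcd1 from -0.186 to 0.041 and of Btla from -0.09 to 0.059. Of the other fits of single receptors, 926 kept direction and side of the threshold, 12 passed where the value reported had not and 14 no longer passed. Values under 5 lie near the control probe sets, which limits Lag3 and Havcr2 and, among others, the Tconv values of Klrg1, Foxp3, Il2ra, Cd80, Pdcd1lg2 and Nfil3.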

Other observations

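The lists of cell type markers, which hold no member of the receptor group, gave the following values in the same fit, in which 41.1% of all genes passed between Tregs and Tconv in KI and 34.6% in WT cells. All 6 Treg markers were higher in Tregs than in Tconv of each genotype, with medians of 4.16 in KI and 3.56 in WT cells. In WT cells Il2ra, the alpha chain of the interleukin-2 receptor, differed by 5.50 (limma adjusted p = 2.25e-15), and Ikzf2, which encodes Helios, by 3.45 (limma adjusted p = 4.09e-16). Of 4 tested NK markers, 1 was higher and 2 lower in Tregs of each genotype: in WT cells Eomes, a T-box factor, differed by 0.92, Prf1, which encodes perforin, by -1.81, and Klrd1, which encodes CD94, by -3.88. Among 6 tested T cell markers, 1 was higher and 2 lower in KI Treg than in KI Tconv, and 1 was higher and 1 lower in WT Treg than in WT Tconv, where Cd2 differed by 0.54 and Cd4 by -0.71. Of 5 tested B cell markers and 3 tested monocyte and macrophage markers, 1 each was higher in Tregs of each genotype, in WT cells Cd79b by 1.15 (limma adjusted p = 0.0354) and Ctss by 0.35 (limma adjusted p = 4.48e-05). No neutrophil marker of 5 tested passed in any comparison, while the summed level of 6 measured ran from 199.7 to 2374 in KI Treg, 67.36 to 3723 in WT Treg, 90.3 to 1055 in KI Tconv and 153.8 to 1634 in WT Tconv. No gene of the B cell, NK cell, CD8 T cell, monocyte or T cell lists passed between KI and WT in either cell type.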
